A study of Danio rerio with 4 samples.

Results

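In the zebrafish retina 12 hours after injury, 200 genes with a single annotated transcript were listed as higher in RNA. Of these, 105 were in none of the tables made 4 days after injury. These 105 genes are described here. They were chosen from the authors' deposited tables by 3 conditions: a single annotated transcript, an abundance at least 2 times that of uninjured retina at 12 hours (after adding 0.1 to each value), and no entry, higher or lower, in the 4 tables of the later groups. They make up 105 of the 386 genes listed higher at 12 hours and of the 2119 genes listed in any of the 6 tables. The fold condition removed nothing, because the smallest fold in the whole table of genes listed higher at 12 hours was 2.64 by the same measure.

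Retinae were taken from wild-type fish aged 10 months that were uninjured, at 12 hours post injury (12 hpi), at 4 days post injury (4 dpi), or at 4 dpi with valproic acid (4 dpi + VPA). In the last group the fish were kept in water with 100 µM valproic acid, an inhibitor of histone deacetylases, for 4 days. The sources used here do not say how the retina was injured or how many fish gave each sample. The labels give 1 sample a group, the series' design text speaks of duplicates, and the tables hold 1 value a group, so no difference below has a replicate check and none was tested anew. All abundances are FPKM, the authors' fragments scaled by transcript length and by the mapped fragments of the sample, and sequencing depth is unknown from the tables.

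Zebrafish repair an injured retina from Müller glia, which leave their resting state, divide and replace lost neurons. The first hours after a tissue is injured are typically marked by immediate early transcription factors, by heat shock proteins that hold or refold damaged proteins, and by signals to and from white blood cells. Many such transcripts are short lived. A whole retina holds neurons, glia, vessels, blood and immune cells together, and in such bulk RNA a change in the number of cells of a type and a change in RNA per cell cannot be told apart.

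What absence from the later tables means is set by how the tables were filtered. The authors' p did not exceed 0.05 in any entry and the higher of its FPKM values was always above 1. The smallest change listed higher was 2.63-fold at 4 dpi and 2.72-fold at 4 dpi + VPA. A gene with no entry may therefore still have stood above its uninjured level at 4 days by a change that did not pass, and its 4-day level is not in the tables used here. The 105 genes are called genes listed at 12 hpi alone in this sense only. Of the 605 genes listed at 12 hpi, 63.3% were higher in all their entries with a fold of at least 2. Of the 200 genes with a single transcript ID listed higher, 105 (52.5%) were in no later table, and over genes with any number of transcript IDs the share was 200 of 386 (51.8%). The other 95 genes with a single transcript ID are the comparison group below. Of these 95, 63 were listed higher at 4 dpi and 87 at 4 dpi + VPA, and 33 and 55 of them then stood above their own 12 hpi level.

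The 105 genes were of moderate to low abundance. Their median FPKM was 0.895 in uninjured retina and 8.01 at 12 hpi, with quartiles of 1.68 and 27.7 and a range of 1.01 to 256 at 12 hpi. The 95 genes also listed later had a median of 1.54 in uninjured retina and of 13.1 at 12 hpi. Genes with several transcript IDs had 12 hpi medians of 8.92 FPKM in no later table and 8.35 FPKM if also listed later. The size of the change was close between the single-transcript sets. On the log2(FPKM + 0.1) scale the median difference from uninjured retina was 3.16 for the 105 genes and 3.19 for the 95. With genes at 0 in uninjured retina left out, these medians were 2.45 over 63 genes and 2.71 over 68. In linear terms the median ratio of those 63 genes was 5.55 and that of the 68 was 6.67. No gene was marked significant by the authors among the 105, and their q-values in the authors' deposited table had a median of 0.997 and a minimum of 0.0717. At the stricter authors' p of 0.01, 36 of the 105 (34.3%) passed, against 47 of the 95 (49.5%) and 33.4% of all genes listed higher at 12 hpi. All of this describes how the sets sit in a filtered table, and the listing at 12 hpi is the rule that chose the genes, not a result.

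**Figure D1:**
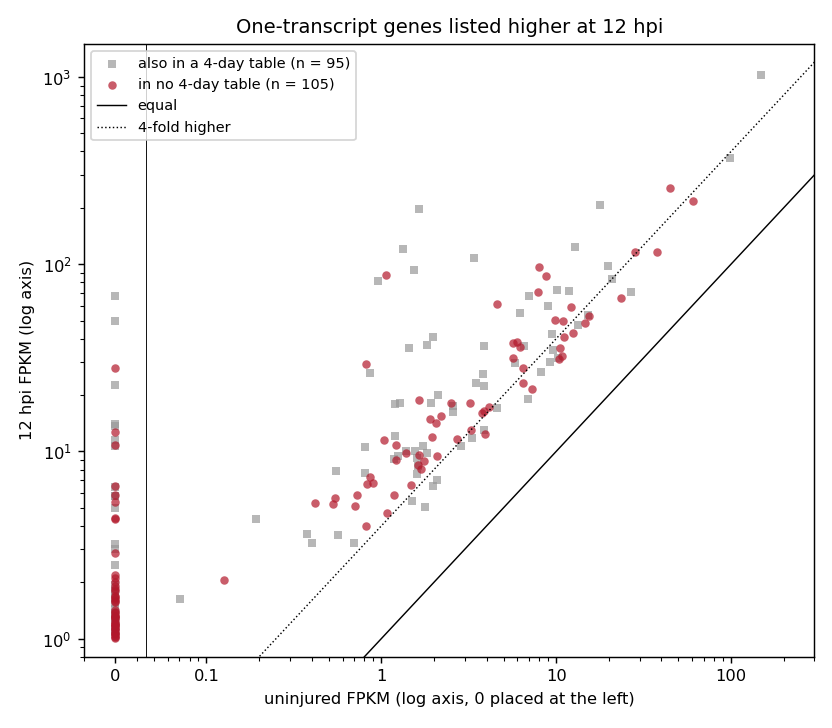
FPKM at 12 hpi (vertical, log axis) against FPKM in uninjured retina (horizontal, log axis, genes at 0 placed left of the vertical line) for the 105 genes in no 4-day table (red circles) and the 95 genes with a single transcript ID that are also in a 4-day table (grey squares). Both sets lie along the same band near and above the 4-fold line, and 42 of the 105 against 27 of the 95 stand at 0 in uninjured retina, most of the 42 between 1 and 2 FPKM at 12 hpi.

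The member with the largest change among those above 0 in uninjured retina, hspb11, serves protein folding. The list of heat shock proteins and chaperones held 79 genes, of which 10 were listed higher at 12 hpi and 0 lower, and 3 of the 10 belonged to the 105 genes, where 27.2% of all 386 genes listed higher did so. Hspb11, called hspb9l in the gene name table, is a small heat shock protein, a class that binds unfolding proteins and keeps them soluble. It measured 1.07 FPKM before injury and 87.3 FPKM at 12 hpi, the largest linear ratio of the 105 genes above 0 in uninjured retina, at 81.5. In the authors' deposited table its log2 fold change was 6.35 with p = 0.0048, and the standard error implied by the authors' test statistic was 1.14. The second, hsp70l, an inducible Hsp70 chaperone, went from 4.58 to 61.5 FPKM, with a log2 fold change of 3.75 (implied standard error 0.809), p = 5e-05 and q = 0.0717 in the authors' deposited table. No p in that table among the 105 genes was smaller. It was given to 24 entries listed higher at 12 hpi, HBZ and CR352263.1 among them. The third, bag3, a partner of Hsp70 that directs clients to autophagy, went from 5.67 to 37.7 FPKM (p = 0.00365 in the authors' deposited table).

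The other 7 of the 10 listed chaperone genes are not among the 105. The Hsp70 relative gene hspa4a (8.64 to 28.1 FPKM) and the Hsp40 gene dnajb1b (1.80 to 10.0 FPKM) were also listed at 12 hpi and not later, and are outside the 105 because each has 2 annotated transcripts. Their values are those of the most abundant listed transcript, while their absence at 4 dpi is judged on whole genes. The endoplasmic reticulum chaperones hspa5 and hsp90b1 were also listed at 4 dpi + VPA but not at 4 dpi without valproic acid. Hspa5 measured 20.9 FPKM in uninjured retina, 83.8 at 12 hpi and 79.3 at 4 dpi + VPA. By the most abundant listed transcript, hspb8 measured 2.47 FPKM at 12 hpi and 3.19 at 4 dpi + VPA. Cryabb measured 13.2 and 29.4 FPKM in the same way, and it was listed higher at 4 dpi too. The cytosolic hsp70.2 measured 0.513, 17.4 and 6.28 FPKM in uninjured retina, at 12 hpi and at 4 dpi. Its 12 hpi value is that of its most abundant listed transcript and its 4 dpi value that of the whole gene. Copies of cytosolic Hsp70 genes are near identical, and the sources used here do not say how the authors' counting shared reads between hsp70l and hsp70.2, so the values of these genes are uncertain in that respect.

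Further members act in stress signalling and redox balance. Ppp1r15a (Gadd34 in mammals) brings a phosphatase to eIF2α and so lets translation resume after stress, and its RNA went from 9.86 to 50.2 FPKM (p = 0.00445 in the authors' deposited table). Ern2, a relative of the endoplasmic reticulum stress sensor Ire1, stood at 1.17 and 5.83 FPKM, and osgn1, which encodes an oxidative stress-induced growth inhibitor, at 10.9 and 49.5 FPKM. Of the endoplasmic reticulum stress list, 4 genes were listed higher at 12 hpi and none belonged to the 105. Over all 386 genes listed higher, 27.2% belonged. The 4 genes were all listed again at 4 days, in 1 or both groups. Hyou1 was listed at 4 dpi + VPA only, trib3 at 4 dpi without valproic acid only, and cebpb and slc7a11 in both. The list does not hold ppp1r15a or ern2.

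A small group belongs to nucleolus and ribosome assembly. Ppan, the zebrafish peter pan gene needed for large ribosomal subunit maturation, measured 3.76 FPKM in uninjured retina and 16.0 at 12 hpi. Dnajc21, a J-domain protein of 60S subunit assembly, measured 1.75 and 8.90 FPKM, and CCDC86, a nucleolar protein, 3.87 and 16.4 FPKM. Their changes lay close together, between 2.06 and 2.28 on the log2(FPKM + 0.1) scale, with p-values of 0.03045 to 0.0416 in the authors' deposited table, near the limit of listing. Of the 93 ribosomal protein and translation factor genes on the list for that group, 1 was listed higher at 12 hpi, and it was listed later as well. Over all 32 gene lists, 119 of 1573 different genes were listed higher at 12 hpi.

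Secreted proteins, matrix proteins and junction proteins formed the next group. A thrombospondin 1 orthologue (given as THBS1 in the tables), a matrix glycoprotein that binds cells and activates TGF-beta, went from 1.63 to 8.46 FPKM. The endothelial proteoglycan gene esm1 went from 0.709 to 5.12 FPKM, and the Wnt ligand gene wnt2bb from 1.69 to 8.01 FPKM. All 7 members of this group stood between 1.77 and 2.69 above uninjured on the log2(FPKM + 0.1) scale, and the highest in abundance was the tight junction gene cldn2, at 15.4 and 52.8 FPKM. On the list of extracellular matrix, proteases and adhesion genes, 8 of 86 were listed higher at 12 hpi and 0 lower. Of these 8, 6 were also listed later, where 51.8% of all 386 genes listed higher were in no later table. Among those 6, the matrix metalloproteinase gene mmp9 measured 0.363 FPKM in uninjured retina and 47.8 at 12 hpi for its most abundant listed transcript. Its whole-gene value at 4 dpi was 85.7 FPKM.

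A pair of peptide hormone genes shared a protein family. Adma, which encodes adrenomedullin, a vasodilator peptide, measured 1.48 FPKM in uninjured retina and 6.64 at 12 hpi (p = 0.04855 in the authors' deposited table). CABZ01030107.1, which has only a clone name, carries the same calcitonin family domain in the authors' annotation and was listed at 0 and at 1.14 FPKM. No endothelium or pericyte gene of the 37 on that list was listed in either direction at 12 hpi, nor was any of the 60 cell cycle genes. Over all 32 gene lists, 119 of 1573 different genes were listed higher at 12 hpi. How many of the 37 or the 60 were tested is not known, so their absence does not show unchanged levels. The endothelium list does not hold esm1.

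Few immune genes were among the 105. The costimulatory receptor gene cd40, found on antigen-presenting cells and others, was the most abundant, at 5.66 FPKM in uninjured retina and 31.4 at 12 hpi (p = 0.0132 in the authors' deposited table). Si:ch73-54b5.2, named cxcr1 in the gene name table and annotated as a C-X-C chemokine receptor, was listed at 0 and at 1.84 FPKM (p = 0.0016 in the authors' deposited table). A ligand gene of such receptors, cxcl8b.1, was listed at 4 days too, and it stood at 0 in uninjured retina, 1.38 FPKM at 12 hpi, 1.79 at 4 dpi and 4.36 at 4 dpi + VPA. Of the 28 chemokine genes and receptors on the list, 6 were listed higher at 12 hpi, 1 of them a member and 4 also listed later. Of all 386 genes listed higher, 27.2% were members and 51.8% were in no later table. The neighbouring genes stx11b.1 and stx11b.2, related to the syntaxin that serves granule release in mammalian killer cells, were both listed at 0 before injury and measured 1.02 and 1.297 FPKM at 12 hpi. They lie 0.965 kb apart on chromosome 20, share a protein domain, and could share reads. An immunoglobulin light chain segment, igl3v1, was listed at 0 and 1.19 FPKM.

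Genes of red blood cells were listed at 12 hpi. HBZ, an alpha-type globin gene called hbae4 in the gene name table, was at 0 before injury and reached 5.38 FPKM at 12 hpi (p = 5e-05 in the authors' deposited table). On the red blood cell list, 4 of 34 genes were listed higher at 12 hpi and 0 were listed lower. None of the 4 was in a later table, beside 200 of 386 (51.8%) over all genes listed higher. The 4 were the globin gene ba1 (53.7 to 350 FPKM), nt5c2l1 (1.61 to 25.4 FPKM), slc4a1a (0.540 to 2.68 FPKM) and sptb (5.13e-05 to 2.28 FPKM). Each of these 4 has several annotated transcripts, and the values are those of its most abundant listed transcript, not of the gene. Their absence at 4 dpi is judged on whole genes, and the uninjured value of the sptb transcript is near the floor. Hbz, 5.18 kb from HBZ, was at 0 before injury and at 1.202 FPKM at 4 dpi. The part of blood cells in the values of the other members was not tested. Of the 74 lens and crystallin genes on a further list, 16 were listed higher at 12 hpi and 0 lower. All 16 were listed later too and 0 were among the 105. Of all 386 genes listed higher, 27.2% were members. Cryaa, for one, measured 0, 49.99, 11.3 and 41.8 FPKM in uninjured retina, at 12 hpi, at 4 dpi and at 4 dpi + VPA.

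By assigned role, 5 of the members were grouped as transcription factors and cofactors. Roles were assigned to members alone, so the same count among the other listed genes is not known. A CSDC2 orthologue (14.5 to 48.7 FPKM) is outside the group, though the authors' annotation gives it regulation of transcription. Wbp2, a coactivator that partners Yap and nuclear receptors, was the most abundant, at 28.3 FPKM before injury and 117 at 12 hpi (p = 0.01395 in the authors' deposited table). Homeza, which encodes a homeodomain and leucine zipper protein, went from 12.2 to 59.4 FPKM (p = 0.0036 in the authors' deposited table). Foxo1b, a forkhead factor restrained by insulin signalling, went from 1.65 to 9.58 FPKM. Its relatives were listed the other way: foxo1a, at 33.2 FPKM in uninjured retina, was listed lower at 4.63 FPKM at 4 dpi and 8.40 at 4 dpi + VPA, and foxo3a, at 45.8 FPKM, was listed lower at 10.5 FPKM at 12 hpi. The Iroquois gene irx5b, whose mouse relative is needed for some retinal bipolar cells, went from 0.420 to 5.33 FPKM. CR381599.1, named TCIM in the gene name table, went from 11.15 to 40.8 FPKM.

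On the list of immediate early and AP-1 transcription factors, with 62 genes, 13 were listed higher at 12 hpi and 0 lower. None of the 13 belonged to the 105. Over all 386 genes listed higher, 27.2% belonged and 51.8% were in no later table. Of the 13, 9 were also listed in a 4-day group, mycb and cebpd at 4 dpi + VPA only. Among the 9, atf3 measured 0.952, 81.8 and 26.6 FPKM in uninjured retina, at 12 hpi and at 4 dpi. Jun measured 6.21 FPKM in uninjured retina, 147 at 12 hpi by its most abundant listed transcript and 90.9 at 4 dpi by whole gene. The other 4, fosab, fosl1a, junba and nr4a1, were in no later table but have several annotated transcripts. The single-transcript condition thus left out the immediate early genes that were otherwise listed at 12 hpi alone.

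Metabolic and transport genes were among the more abundant members. Pgd, the 6-phosphogluconate dehydrogenase of the pentose phosphate pathway, which makes NADPH, measured 37.7 FPKM in uninjured retina and 116 at 12 hpi (p = 0.02765 in the authors' deposited table). Dio3b, a deiodinase that inactivates thyroid hormone (typed as a processed transcript in the tables), measured 12.4 and 42.8 FPKM, and the organic anion and cyclic nucleotide exporter abcc4 measured 10.4 and 31.1 FPKM. A lipid phosphate phosphatase orthologue, PLPP2, measured 2.06 and 14.1 FPKM, and parp4, a poly(ADP-ribose) polymerase of the vault particle, 0.859 and 7.34 FPKM. Of these, parp4, with p = 0.0032 in the authors' deposited table, had the smallest authors' p of the 6 genes in this group.

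One photoreceptor gene was listed. Guca1a, a calcium sensor that activates retinal guanylate cyclase and so restores cyclic GMP after light, measured 60.4 FPKM in uninjured retina, the highest uninjured level of the 105, and 217 FPKM at 12 hpi. Its p in the authors' deposited table, 0.0417, lay close to the limit. Relatives of it were listed lower: guca1e was listed at 40.6 and 3.45 FPKM in uninjured retina and at 12 hpi for its more abundant transcript, and guca1d at 165 FPKM in uninjured retina and 48.4 at 4 dpi. Of the 42 cone genes on the list, guca1a was the only one listed higher at 12 hpi and 2 were listed lower. Of 25 rod genes 1 was listed higher and 2 lower, the latter including rcvrna (237 to 63.6 FPKM). Over all 32 gene lists, 119 of 1573 different genes were listed higher at 12 hpi. In uninjured retina the photoreceptor genes given here stood at 40.6 to 237 FPKM. At 12 hpi guca1a, rcvrna and guca1e stood at 217, 63.6 and 3.45 FPKM.

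**Figure D2:**
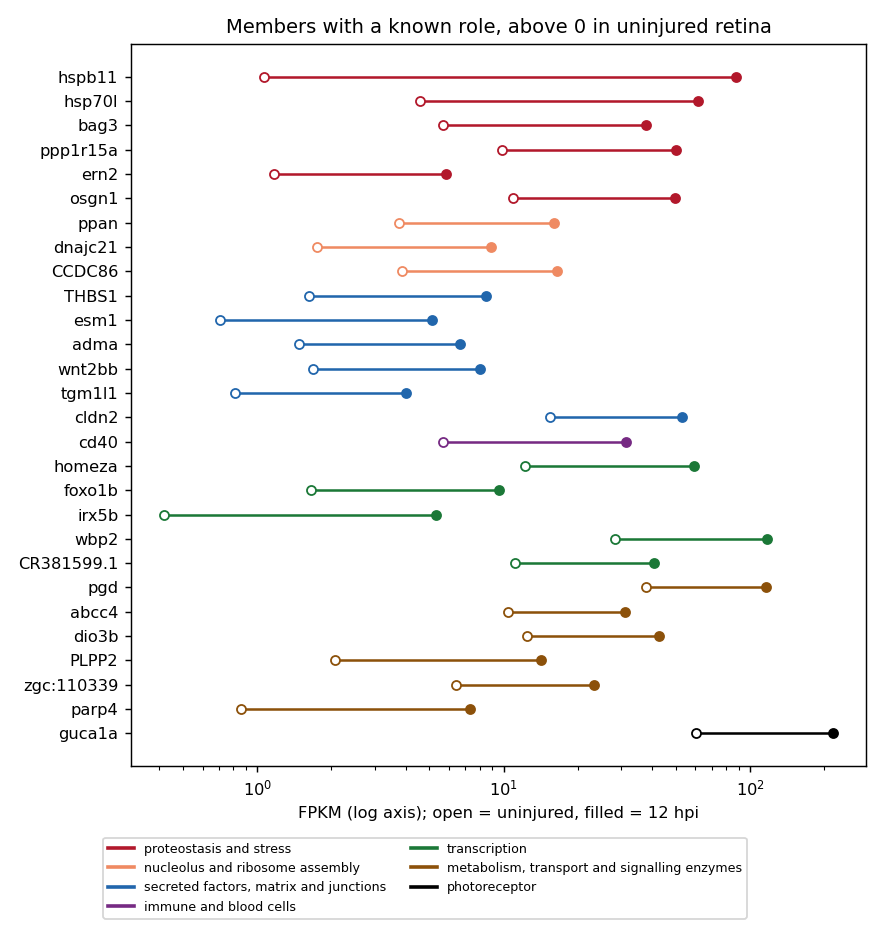
FPKM (horizontal, log axis) in uninjured retina (open circles) and at 12 hpi (filled circles) for 28 members that have a role and are above 0 in uninjured retina, 1 value a group, coloured by role. The line for hspb11 is the longest, from 1.07 to 87.3 FPKM, and guca1a stands furthest right, from 60.4 to 217 FPKM.

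Outside the role groups above stand 71 of the 105 genes, most of them uncharacterised, and several of these were among the most abundant. The gene zgc:158463, an uncharacterised protein-coding gene on chromosome 5, had the highest 12 hpi level of all 105, at 256 FPKM against 44.8 in uninjured retina (p = 0.002 in the authors' deposited table). The gene zgc:158343, also on chromosome 5 and annotated by the authors' table to negative regulation of apoptosis, went from 7.97 to 96.8 FPKM (p = 0.00025 in the authors' deposited table). CABZ01112401.1 went from 8.70 to 86.9 FPKM, and the lincRNA si:dkey-13m3.1 from 7.85 to 71.2 FPKM. The processed transcript si:ch211-242h13.4 went from 0.815 to 29.1 FPKM, a ratio of 35.8 and the second largest after hspb11. It lies on chromosome 6, 49.8 kb from osgn1, another of the 105 genes. The ratio was 5.72 for zgc:158463, 12.14 for zgc:158343 and 9.07 for si:dkey-13m3.1, beside a median of 5.55 over the 63 members above 0 in uninjured retina.

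The 105 genes and the 95 also listed later differed in their annotation. Of the 105, 79 (75.2%) are typed protein-coding, against 90 of 95 (94.7%). The other 26 comprise 10 lincRNAs, 10 processed transcripts, 2 miRNAs, 1 snRNA, 1 antisense RNA and 2 pseudogenes. A clone accession is the authors' symbol of 33 (31.4%), against 3 of 95 (3.16%), and 3 of the 33 are in the gene name table. A gene ontology term is given for 57 (54.3%) against 69 (72.6%). Among the protein-coding genes, 64 of 79 (81.0%) are listed as an uncharacterised protein, against 39 of 90 (43.3%), and 24 (30.4%) carry no domain entry, against 8 (8.89%). That protein name is a database label and does not mean an unknown function, since guca1a, wbp2, bag3 and adma also carry it. The clone-named genes are compact, with a median span of 1.58 kb, against 8.12 kb for the 41 members with other symbols. No test was run on these shares, which are counts over fixed sets of genes.

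A set of short, uncharacterised genes stands out within the 105. Protein-coding members spanning less than 2 kb with no domain entry number 19, against 2 of the 95 genes also listed later. Of the 19, 10 are annotated as integral membrane components. That annotation is held by 22 of all 79 protein-coding members and by 8 of the 90 protein-coding genes also listed later. They ranged from 1.11 FPKM to 256 FPKM at 12 hpi, and 8 of them were at 0 in uninjured retina. Besides zgc:158463 and CABZ01112401.1, they include CR759810.1 (5.99 to 38.5 FPKM), CABZ01118154.1 (6.18 to 36.0 FPKM), CABZ01040256.1 (6.47 to 27.7 FPKM) and CR391930.1 (1.65 to 18.8 FPKM). Whether these genes have other copies in the genome that share their reads was not tested.

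Mobile element proteins also occur. CT956002.1 (0.527 to 5.24 FPKM) and CR388166.1 (1.08 to 4.71 FPKM) both carry a reverse transcriptase domain in the authors' annotation. Over all 105 genes, 50 carry a Pfam domain, 74 different domains are present and only 4 are held by more than 1 member. Those 4 are the reverse transcriptase domain, the calcitonin family, the syntaxin N-terminal domain and the rhodopsin-like receptor domain shared by si:ch73-54b5.2 and the odorant receptor or129-1 (0 to 1.06 FPKM). The members with a Pfam domain therefore do not form a protein family, and members without a domain cannot be judged in this way.

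**Figure D3:**
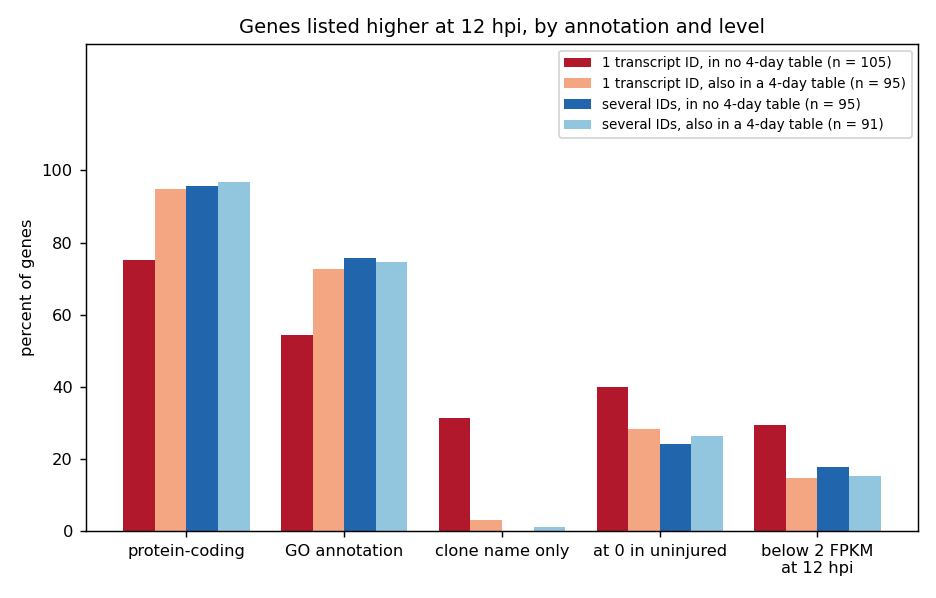
Percent of genes (vertical) typed as protein-coding, with a gene ontology term, with a clone name only, at 0 in uninjured retina, and below 2 FPKM at 12 hpi, for the 4 sets of genes listed higher at 12 hpi defined by transcript IDs and by listing at 4 days. Clone name only means that the authors' symbol is a clone accession, whether or not the gene name table gives another name. The 105 genes (dark red) have the fewest protein-coding genes (75.2%) and the most clone-named genes (31.4%), also beside the 95 genes with several transcript IDs in no 4-day table (dark blue, 95.8% protein-coding and 0 clone-named).

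Most members that are not typed protein-coding were at 0 before injury. Of the 26 genes of these types, 19 were listed at 0 in uninjured retina, against 23 of the 79 protein-coding genes. The highest FPKM of the 19 was that of U6atac, the small nuclear RNA of the minor spliceosome, at 28.0, followed by si:dkey-20f20.6 at 12.7 FPKM and dre-mir-21-1 at 10.8 FPKM. U6atac spans 0.128 kb, and because FPKM is scaled by transcript length, so short a feature can reach a high FPKM with few reads. The gene dre-mir-21-1 lies on chromosome 10, from 28312268 to 28312416 on the minus strand (GRCz10, coordinates as deposited). It encodes the precursor of miR-21, a miRNA raised in many injured tissues. The second miRNA gene, CR936442.1, stood at 0 and 6.56 FPKM. These short features are measured by RNA libraries made with a standard protocol, not by a small RNA protocol, so the values do not give the mature miRNA. The antisense RNA si:ch211-145g9.6 was listed at 0 and 2.19 FPKM, and its strand rests on annotation because the labels do not state strand-aware counting.

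Genes at 0 in uninjured retina were low at 12 hpi. The 42 genes at 0 (40.0% of the 105, against 28.4% of the 95 also listed later) had a median of 1.405 FPKM at 12 hpi and have no test statistic in the authors' deposited table. The 63 genes above 0 had a median of 17.2 FPKM and an implied standard error of 0.717 to 1.29 on the log2 scale, with a median of 0.891. For these 63 the authors' p was a median of 2.03 times the normal p of the same statistic. By this median the implied error may understate the uncertainty, though not for every gene. For abcc4 the p in the authors' deposited table was 0.0266 and the normal p of its statistic 0.0277. An authors' p of at most 0.01 was held by 20 of the 42 genes at 0 (47.6%) and by 16 of the 63 above 0 (25.4%), so that the genes at 0 supply 20 of the 36 members at that limit. In all, 31 of the 105 (29.5%) were below 2 FPKM at 12 hpi, just above the filter at 1, against 14 of the 95 (14.7%). At 0 in uninjured retina no fold can be stated, since the depth behind the 0 is unknown.

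Shared p-values were more frequent among the genes at 0. In the authors' deposited table, p = 0.03765 was given to 8 of the 105 genes and to no other gene listed higher at 12 hpi. All 8 were at 0 in uninjured retina and none is protein-coding, while their 12 hpi levels ran from 1.01 FPKM (si:dkey-2j6.5) to 28.0 FPKM (U6atac). Over all members at 0, 26 of 42 shared their p with another member, against 4 of the 63 above 0. In the authors' deposited table, 5 protein-coding genes at 0 had a p of at most 0.00025, and 4 of them, HBZ apart, stood at only 1.64 to 2.85 FPKM at 12 hpi: CR352263.1, CABZ01065425.1, CABZ01081821.1 and si:dkey-234d14.2.

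**Figure D4:**
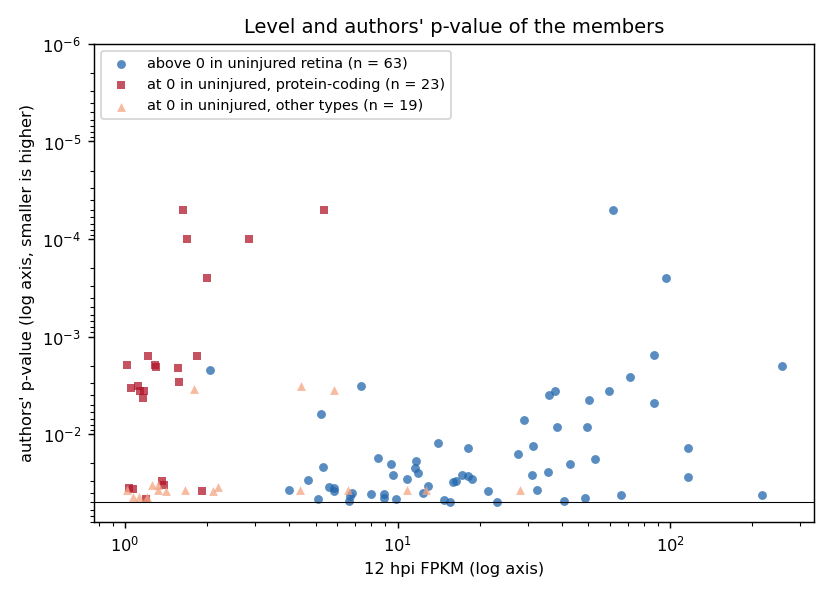
Authors' p-value (vertical, log axis, smaller values higher, the line at 0.05) against FPKM at 12 hpi (horizontal, log axis) for the 105 genes, split by level in uninjured retina and by gene type. Of the 19 genes of other types at 0 in uninjured retina (triangles), 16 lie at p-values of 0.0331 to 0.0447 across 1.01 to 28.0 FPKM and 3 at 0.00325 to 0.0035, and the 5 smallest p-values among genes at 0 (squares) belong to genes of at most 5.38 FPKM.

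The members just inside the limits show how the list ends. By fold, with 0.1 added, the 4 smallest were si:ch73-6k14.2 at 2.81 (23.4 to 66.0 FPKM), TGOLN2 at 2.93, abcc4 at 2.97 and CABZ01029822.1 at 2.99, and no gene stood just outside because no listed gene was below a fold of 2. By p, 20 of the 105 had an authors' p above 0.04. The largest in the authors' deposited table belonged to the lincRNA si:dkey-234i14.20, at p = 0.05 with 2.21 and 15.5 FPKM, and to the dehydrogenase family gene zgc:110339, at p = 0.0494 with 6.44 and 23.2 FPKM. The change of si:dkey-234i14.20, 2.76 on the log2(FPKM + 0.1) scale, was close to that of bag3, 2.71.

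In the genome the 105 genes lay on many chromosomes. Chromosome 6 held 12 of them, chromosomes 7 and 21 held 7 each, and 5 lay on unplaced scaffolds. Within 50 kb, 33 had a neighbour listed in one of the tables. For 11 the neighbour was listed higher at 12 hpi, for 5 it was listed lower at 12 hpi, and at 4 days it was listed higher for 19 and lower for 9. Only 6 members lay within 50 kb of another member, in 3 pairs. Examples of the first kind are si:ch73-6k14.2, which lies 19.3 kb from the chemokine gene cxcl18b (3.40, 107.7 and 58.9 FPKM in uninjured retina, at 12 hpi and at 4 dpi + VPA), and the antisense RNA si:ch211-145g9.6, 18.6 kb from junba (2.91 and 19.1 FPKM). BX950188.1, a leucine-rich repeat gene called cpn2 in the gene name table, went from 0.541 to 5.61 FPKM and lies 0.769 kb from lrrc15 on the same strand. Lrrc15 itself was listed in all 3 injured groups. It stood at 5.96 FPKM at 12 hpi and 7.22 at 4 dpi + VPA by transcript, and at 4.25 at 4 dpi by whole gene. A neighbour is a description of position and was not tested against chance. Chromosomes and neighbours were not counted for the other listed genes, so these counts cannot be read as traits of the 105.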

How the data were processed

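Whole-retina RNA was sequenced with standard Illumina libraries, per the labels' protocols. The submitters' processing notes name the build GRCz10, the aligners TopHat2 2.1.0 and Bowtie2 2.2.2, and Cufflinks 2.2.1. The authors deposited for each entry, per the file headers, 2 FPKM values, a log2 fold change without pseudocount, a test statistic (a score), a p-value and a q-value. The tables of 12 hpi and 4 dpi + VPA list transcripts and those of 4 dpi list genes. For genes with a single transcript ID the uninjured FPKM was equal in 153 of 153 pairs of entries shared by 2 tables. The deposited tables were filtered, as read from their values, at p of at most 0.05 and FPKM above 1.

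Changes were recomputed as the log2 of (12 hpi FPKM + 0.1)/(uninjured FPKM + 0.1) in Python 3.11.15 with pandas 2.3.3, and the selection was checked on simulated tables. Standard errors are the authors' log2 fold change divided by their test statistic. With 1 value a group no test was run. Genes, the 32 gene lists (1573 different genes) and roles were chosen with earlier results of these data known. Of the 105 genes, 67 matched the gene name table. Named genes were the 12 highest 12 hpi levels, the 12 largest changes above 0.1 FPKM, the 6 smallest p, up to 8 members of each list and the 4 nearest the fold limit. Genes grouped by role, annotation, shared p, family or position were chosen after their values were seen. Roles were given to members alone, so the sizes of the role groups have no count among other listed genes beside them. Of the members, 1 is not reported here. No sequence is shown.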

Additional observations from a re-analysis of the deposited data

How the results depend on the processing

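The number of genes, 105, was 91 at a fold of at least 4, 105 with a pseudocount of 1 or of 0.01 or with absence judged by gene symbol, 136 with absence required from the 4 dpi tables only and 111 from the 4 dpi + VPA tables only. It was 63 without genes below 0.01 FPKM in uninjured retina, 36 at an authors' p of at most 0.01, 66 at a 12 hpi FPKM of at least 5, and 200 with any number of transcript IDs. The share in no later table, 52.5%, was 68.0% with the 4 dpi tables only and 43.4% at p of at most 0.01, and lay between 47.8% and 54.2% otherwise, apart from 111 of 200 with the 4 dpi + VPA tables only. The median log2 change, 3.16, was 1.77 with a pseudocount of 1, 3.29 with 0.01 and 2.45 without genes below 0.01 FPKM in uninjured retina. Without those genes the median 12 hpi FPKM was 17.2 in place of 8.01 and, for the genes also listed later, 21.3 in place of 13.1. The share at 0 in uninjured retina was 40.0% at every cut-off tried (0, 0.01 and 0.1 FPKM), and the 9 members on a gene list became 8 without genes at 0 and 7 at a fold of 4. As an alternative chosen after seeing the data, the protein-coding share was 88.9% against 100% without genes below 0.01 FPKM and 81.8% against 97.2% at a 12 hpi FPKM of at least 5. No paired analysis was possible because each group has 1 sample. Leaving out a replicate could not be done for the same reason, and promoter motifs were not analysed here.

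The tables hold only entries that passed the authors' filter, so 4-day levels of the 105 genes, the number of genes tested and the depth behind a value at 0 are not known. A gene near either limit of that filter could leave or enter the list with a small change in reads.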

Other observations

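Genes with several annotated transcripts made up the other 95 genes that were listed higher at 12 hpi and in no 4-day table. They hold signalling genes that the single-transcript set lacks. Stat3, the transcription factor of interleukin 6 family signalling, measured 7.84 FPKM in uninjured retina and 79.5 at 12 hpi for its most abundant listed transcript. Cish and socs2, feedback inhibitors of Jak/Stat signalling, measured 8.38 and 78.3 FPKM and 22.9 and 71.1 FPKM. The receptor subunit gene il6st had transcripts in both directions, 1 of them at 8.02 and 37.5 FPKM. The immediate early gene fosab measured 1.89 and 77.3 FPKM, and the growth arrest genes gadd45ba and gadd45bb 20.8 and 108 FPKM and 0.850 and 10.0 FPKM. The 12 hpi and 4 dpi + VPA tables list single transcripts and the 4 dpi tables list whole genes, so for these genes absence at 4 dpi is judged on another level than presence at 12 hpi, and their part in a transient response was not tested.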
